A study of Homo sapiens with 12 samples.

Results

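The genes described here build, modify or bind the extracellular matrix, or belong to the system that activates plasminogen. They were taken from a list of matrix proteins, collagen-modifying enzymes, integrin subunits and plasminogen activation genes, matched by Ensembl identifier, and 47 of the 12584 genes in the count table were members. Both A549 and PC9 are long-established lines of human lung adenocarcinoma. In each line, cells with the HOXC6 lentiviral vector (pCDH-HOXC6; A549-HOXC6 and PC9-HOXC6) were compared with cells carrying the empty vector (pCDH-NEO; A549-NEO and PC9-NEO), all under neomycin selection, and poly(A) RNA was sequenced in 3 libraries for each of the 4 groups. HOXC6 is a homeobox transcription factor, and the comparison asked which genes change when it is overexpressed. The cells were stably infected, no clonal selection is described, and A549 was grown in RPMI and PC9 in DMEM, so that cell line and medium cannot be told apart where the lines are compared.

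The extracellular matrix is the network of secreted proteins around cells. Collagens give it tensile strength once enzymes have hydroxylated and cross-linked them, laminins, nidogens and perlecan form the basement membrane under epithelia, and fibrillins and latent TGF-beta binding proteins form microfibrils that store the growth factor. Integrins are alpha-beta heterodimers that anchor cells to these proteins. The plasminogen activators urokinase and tissue-type activator make plasmin, a protease that degrades matrix, and the urokinase receptor holds urokinase at the cell surface.

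The counts summed to between 1212053 and 3286577 per library over the genes in the table, with the lowest total in A549-HOXC6 replicate 2, and the members took 1.28% to 2.26% of them. A level of 3 counts, taken as the smallest detectable, equals 0.913 to 2.48 CPM (counts scaled to library size), which covers counting error only. HOXC6 itself was not analysed here, so the labels could not be checked on it. Of the 6 epithelial markers, 3 were in the table (EPCAM, CDH1 and KRT18), and their summed level was 1326 to 1383 normalized CPM in A549-NEO, 1778 to 2203 in A549-HOXC6, 6162 to 6683 in PC9-NEO and 6103 to 6274 in PC9-HOXC6. In A549 the higher sum came from KRT18 (1173 with NEO and 1807 with HOXC6), while CDH1 had 184 and 139 and EPCAM 5.78 and 5.30. The 6 fibroblast markers, which include the collagen gene COL1A2 and the proteoglycan genes DCN and LUM, summed to at most 4.75 normalized CPM in any library, and the 2 endothelial markers in the table to at most 5.33. The 2 leukocyte markers in the table (CD68 carried the signal) lay between 6.45 and 24.0, with the highest value in an A549-HOXC6 library. The part of these marker levels in the results was not tested. A549-HOXC6 replicate 3 stood apart from its group, with a chi-square per degree of freedom of 4.26 and 3.11 against the other 2 libraries, where every other pair within a group lay between 1.58 and 2.78, and it held all the endothelial marker counts of A549 (KDR 6 and VWF 4). CDKN2A, a gene that A549 is known to lack, had at most 1 count in any A549 library. In bulk RNA, fewer cells of a type and less RNA per cell cannot be told apart. Nothing in the labels says that the 3 libraries of a group came from separate cultures, and p-values then measure the spread between these libraries. The paper names an A549 and a PC9 line for each vector, so HOXC6 and other differences between these lines cannot be told apart.

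Promoter sequences are shown for 4 of the genes whose change in A549-HOXC6 differed from that in PC9-HOXC6. Of these, 2 fell in A549 (LAMA3 and LAMB1) and 2 rose (SPARC and THBS1). MRC2, FBN1 and PLAU also passed both thresholds in that difference and are not shown. The 4 were chosen with their changes known, and a relation between promoter letters and direction was not tested. Each is the stretch of 250 bases before a RefSeq start (GRCh38.p14), 5′ to 3′ on the gene's strand, and capitals mark TAAT or its reverse complement ATTA, the core letters that homeodomain proteins are known to bind. LAMA3 is known to have alternative promoters, and the table lists 1 of them.
LAMA3 (chr18:23872770-23873019, forward strand): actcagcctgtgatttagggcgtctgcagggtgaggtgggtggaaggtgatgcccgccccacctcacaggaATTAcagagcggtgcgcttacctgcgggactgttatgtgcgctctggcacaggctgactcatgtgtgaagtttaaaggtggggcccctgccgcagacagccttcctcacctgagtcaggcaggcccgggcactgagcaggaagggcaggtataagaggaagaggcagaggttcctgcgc
LAMB1 (chr7:108003162-108003411, reverse strand): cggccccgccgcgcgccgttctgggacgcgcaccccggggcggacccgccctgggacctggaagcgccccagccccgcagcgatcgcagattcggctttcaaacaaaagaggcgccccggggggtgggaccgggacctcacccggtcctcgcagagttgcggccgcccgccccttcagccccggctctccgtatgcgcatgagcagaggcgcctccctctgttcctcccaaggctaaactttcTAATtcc
SPARC (chr5:151686916-151687165, reverse strand): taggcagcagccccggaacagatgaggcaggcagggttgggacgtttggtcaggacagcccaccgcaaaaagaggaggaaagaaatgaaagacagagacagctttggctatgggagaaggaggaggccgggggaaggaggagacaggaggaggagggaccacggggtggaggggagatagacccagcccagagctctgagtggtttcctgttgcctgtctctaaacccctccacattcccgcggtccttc
THBS1 (chr15:39580829-39581078, forward strand): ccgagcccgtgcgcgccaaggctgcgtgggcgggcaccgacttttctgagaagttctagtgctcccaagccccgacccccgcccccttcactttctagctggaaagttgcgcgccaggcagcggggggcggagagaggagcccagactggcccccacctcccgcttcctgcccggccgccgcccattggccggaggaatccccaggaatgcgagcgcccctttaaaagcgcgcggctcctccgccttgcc
The LAMA3 stretch held ATTA 179 bases before the start and the LAMB1 stretch held TAAT 7 bases before it. The SPARC and THBS1 stretches held neither. Searched on both strands, these letters were in 22 of 51 listed promoters of 38 members (43.1%), against 16660 of 35116 of all promoters (47.4%).

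In cells with the empty vector, most members differed in level between the 2 lines. Of 46 members tested, 28 were higher and 14 lower in A549-NEO than in PC9-NEO at an adjusted p under 0.05 (edgeR, Benjamini-Hochberg adjustment over all genes), which is what passing the test means below. Among all 9229 genes tested, 34.6% were higher and 36.4% lower. With a log2 fold change (log2FC) beyond 1 as well, 22 members were higher and 11 lower, where 19.3% and 17.5% of all genes were.

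Per kilobase of transcript, the integrin subunits ITGB1 (605 normalized CPM per kb) and ITGA3 (462) stood highest in A549-NEO, followed by PLAU (348), which encodes urokinase, and FN1 (298), which encodes fibronectin. In PC9-NEO the highest were FBLN1 (412), which encodes fibulin-1, LTBP3 (236), ITGA3 (220) and FN1 (206). All 7 basement membrane genes were higher in A549-NEO, with log2 fold changes of 2.91 for LAMA3, 1.65 for LAMB1 and 1.87 for HSPG2, the perlecan gene. ITGB1 was higher by 2.48 and PLAU by 3.27, also on the log2 scale. The collagen receptor gene MRC2 showed 627 ± 14.5 normalized CPM in A549-NEO and 1.77 ± 0.209 in PC9-NEO (SD, n = 3 each).

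In the opposite direction, PC9-NEO had more of TNC, which encodes tenascin-C (log2 fold change -4.72), and of COL12A1 (-4.06), ITGB8 (-3.94), PLAT (-3.15, tissue-type plasminogen activator), FBLN1 (-2.64), ITGB6 (-2.42) and LTBP2 (-2.39). The A549-NEO libraries held 7, 5 and 6 counts of TNC and 2, 1 and 5 of ITGB8. The ITGB8 counts lay around the floor and left its size imprecise (-4.75 to -3.60 over the alternatives). Genes at the floor in PC9-NEO are given as bounds. FBN2, the fibrillin-2 gene, had 0 counts in all 6 PC9 libraries and was at least 62.0-fold higher in A549-NEO. NID1, which encodes nidogen-1, was at least 33.8-fold higher and COL20A1 at least 9.80-fold higher, each set against a group floor of 3 counts per library. FBN2, NID1 and COL20A1 passed the low-count filter only through A549 libraries, and TNC and ITGB8 only through PC9 libraries. SPARC, COL16A1, ITGA2 and LOX did not pass in this contrast.

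**Figure D1:**
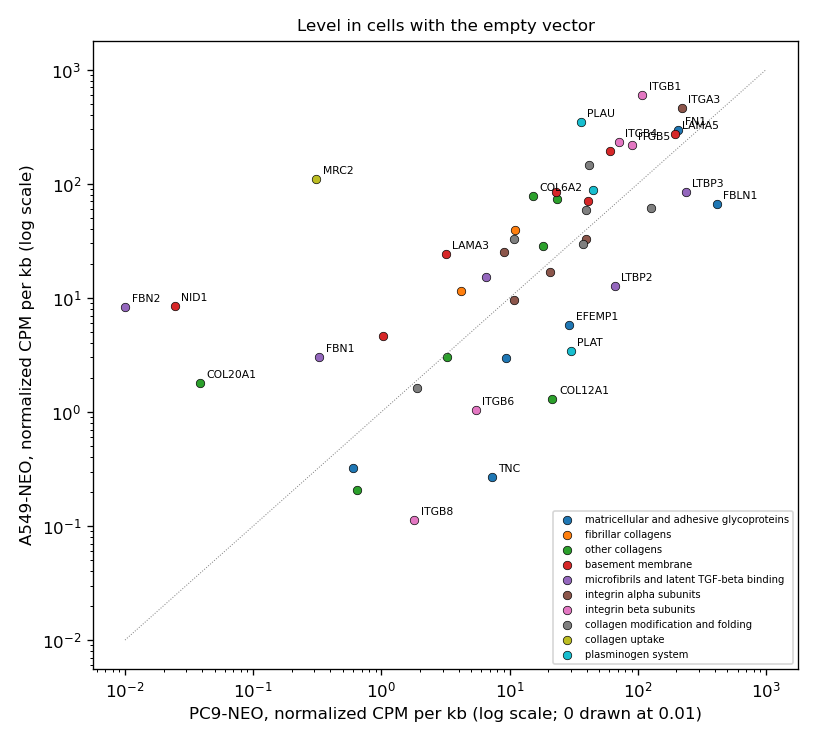
Mean level of each member in PC9-NEO (horizontal) and A549-NEO (vertical), in normalized CPM per kilobase on log scales, coloured by role, with the dotted line at equal levels and a level of 0 drawn at 0.01. MRC2 (110 in A549-NEO, 0.310 in PC9-NEO), FBN2 and NID1 lie far above the line and TNC, COL12A1 and ITGB8 below it.

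With HOXC6 overexpression, members moved in both directions in A549. Of 44 members tested, 15 rose and 10 fell at an adjusted p under 0.05, where 18.9% of all 8771 genes rose and 20.7% fell. With a log2 fold change beyond 1, 2 rose (SPARC and THBS1) and 5 fell (LAMA3, LAMB1, ITGB1, PLAU and COL20A1), against 1.7% and 5.51% of all genes. SPARC passed the low-count filter only through its A549-HOXC6 libraries and COL20A1 only through its A549-NEO libraries. Without A549-HOXC6 replicate 3, 13 rose and 11 fell at an adjusted p under 0.05, and past both thresholds FBN2 (1.05) joined those that rose and ITGB1 (-0.97) left those that fell. The median log2 fold change of the members was 0.06, and that of all genes was -0.00047. COL17A1, TNC and ITGB8 were too low to be tested in A549.

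In PC9 the members moved mostly upward. Of 41 tested, 18 rose and 3 fell at an adjusted p under 0.05, against 13.3% and 14.2% of all 8419 genes. With the fold change criterion, MRC2 and PLAT rose and no member fell, against 0.962% and 3.56% of all genes. MRC2 passed the low-count filter only through its PC9-HOXC6 libraries. The lowest log2FC in PC9 was -0.58 (ITGA2), so 0 members fell past 1 at an unadjusted p under 0.05 either, and DESeq2 gave 0. The median log2 fold change of the members was 0.35, and that of all genes was -0.0046. SPARC, COL17A1, COL20A1, NID1, FBN1 and FBN2 were too low to be tested in PC9.

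The HOXC6 effect differed between the lines for 17 of 46 members tested. In A549 it was higher for 6 and lower for 11, where 10.9% and 8.44% of all 9229 genes were. With a difference beyond 1 on the log2 scale, it was higher for SPARC, THBS1 and FBN1 and lower for MRC2, LAMA3, LAMB1 and PLAU, against 2.76% and 2.38% of all genes. SPARC passed the low-count filter of this fit only through its A549-HOXC6 libraries. Of the 39 members tested in both lines, 12 rose in A549 and 17 in PC9, and 7 rose in both (FN1, COL5A1, FBLN1, ITGB5, LOXL2, MRC2 and PLAT). Those 7 were 58.3% of the A549 list and 41.2% of the PC9 list, and for all genes the shared share was 18.6% of the A549 list and 27.0% of the PC9 list. ITGA2 and ITGAV fell in both lines, which was 22.2% of the 9 that fell in A549 and 66.7% of the 3 that fell in PC9, with 39.4% and 58.0% for all genes. When each library was corrected for trends on transcript GC content and length, FBLN1 (0.02), MRC2 (0.05) and PLAT (0.39) did not pass in A549. FN1, COL5A1, ITGB5 and LOXL2 still passed in both lines, and ITGA2 and ITGAV passed in neither. The shares over all genes were computed without this correction only. LAMB1 moved in opposite directions.

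**Figure D2:**
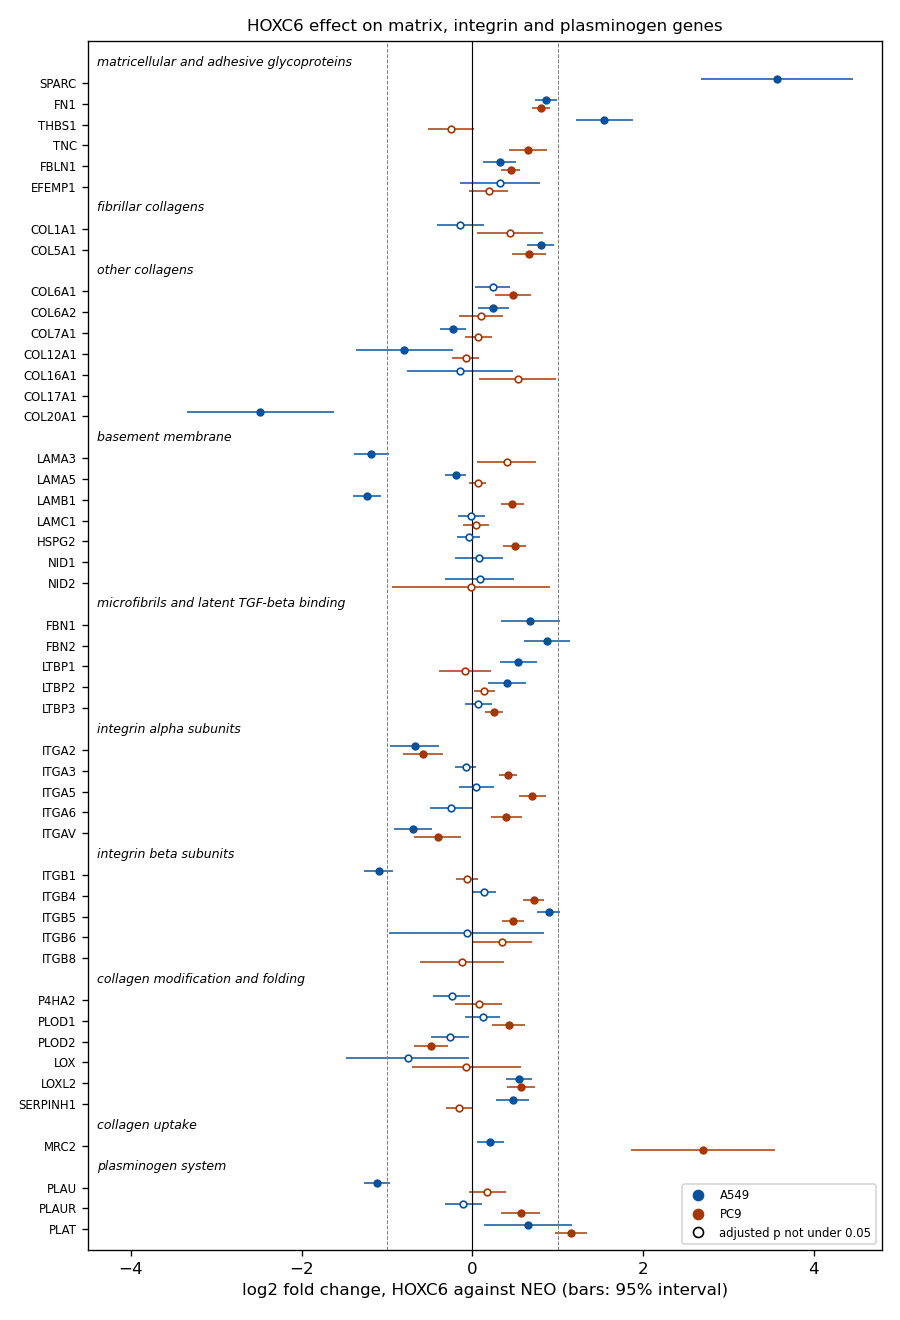
Log2 fold change of each member (horizontal), HOXC6 against NEO, in A549 (blue) and PC9 (brown), by role, with bars of 95% intervals, open circles where the adjusted p was not under 0.05 and dashed lines at -1 and 1. The longest shifts were SPARC in A549 (3.57) and MRC2 in PC9 (2.70), and the falls of LAMA3, LAMB1, ITGB1, PLAU and COL20A1 appear in A549.

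Among the matricellular and adhesive glycoproteins, 4 of the 5 members tested in A549 rose (SPARC, THBS1, FN1 and FBLN1), as did 3 of the 5 tested in PC9 (FN1, TNC and FBLN1). SPARC (ENSG00000113140, chr5:151040657-151066536 of GRCh37) encodes a secreted calcium-binding protein that associates with collagen. The A549-NEO libraries held 4, 1 and 4 counts of it, those of A549-HOXC6 39, 12 and 34 (1.12 ± 0.631 and 14.2 ± 3.95 normalized CPM, SD, n = 3), giving a log2FC of 3.57 ± 0.455 (SE, adjusted p = 6.22e-07). No A549-HOXC6 library overlapped the A549-NEO range, but the A549-NEO counts lay around the floor of 3 and left the size imprecise (95% interval 2.68 to 4.46). SPARC entered the A549 test only through the A549-HOXC6 libraries, where it was high. In PC9, SPARC was low with either vector (4, 3 and 6 counts with NEO, 8, 0 and 6 with HOXC6). The log2FC was higher in A549 than in PC9 by 3.63 ± 0.890 (SE, adjusted p = 0.00269). SPARC entered that test of 12 libraries, too, only through A549-HOXC6. The exons of SPARC share 191 bases with an antisense gene, and which strand setting was used in counting is not given in the sources used here.

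THBS1 (ENSG00000137801, chr15:39873280-39891667) encodes thrombospondin-1, a large glycoprotein that activates latent TGF-beta. Its levels were 19.5, 27.4 and 22.0 normalized CPM in A549-NEO, against 74.9, 71.5 and 59.1 in A549-HOXC6, giving a log2FC of 1.55 ± 0.170 (SE, adjusted p = 4.96e-08). In PC9 the libraries overlapped, at 64.0, 75.8 and 79.2 in PC9-NEO, against 68.1, 70.3 and 50.8 in PC9-HOXC6. The A549-HOXC6 libraries lay inside the range of the PC9 libraries, and the effect was higher in A549 by 1.84 (adjusted p = 5.06e-08). Its exons share 694 bases with antisense genes.

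FN1 rose in both lines. In A549 it went from 2496 ± 50.8 to 4660 ± 416 normalized CPM, and PC9 showed 1730 ± 121 with NEO and 3016 ± 103 with HOXC6 (SD, n = 3). The log2 fold changes were 0.86 (adjusted p = 7.57e-11) and 0.81 (adjusted p = 4.35e-12), and their difference was 0.10, with a 95% interval from -0.08 to 0.28. FBLN1 rose by 0.32 in A549 and 0.45 in PC9. Its A549 change did not hold after each library was corrected for smooth trends of its counts on transcript GC content and length (0.02). TNC rose by 0.65 in PC9 (adjusted p = 6.52e-05), and EFEMP1, a fibulin-like protein gene, passed in neither line, though in PC9 it had 0.19 without the correction and 0.35 with it, which passed (adjusted p = 0.0283).

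**Figure D3:**
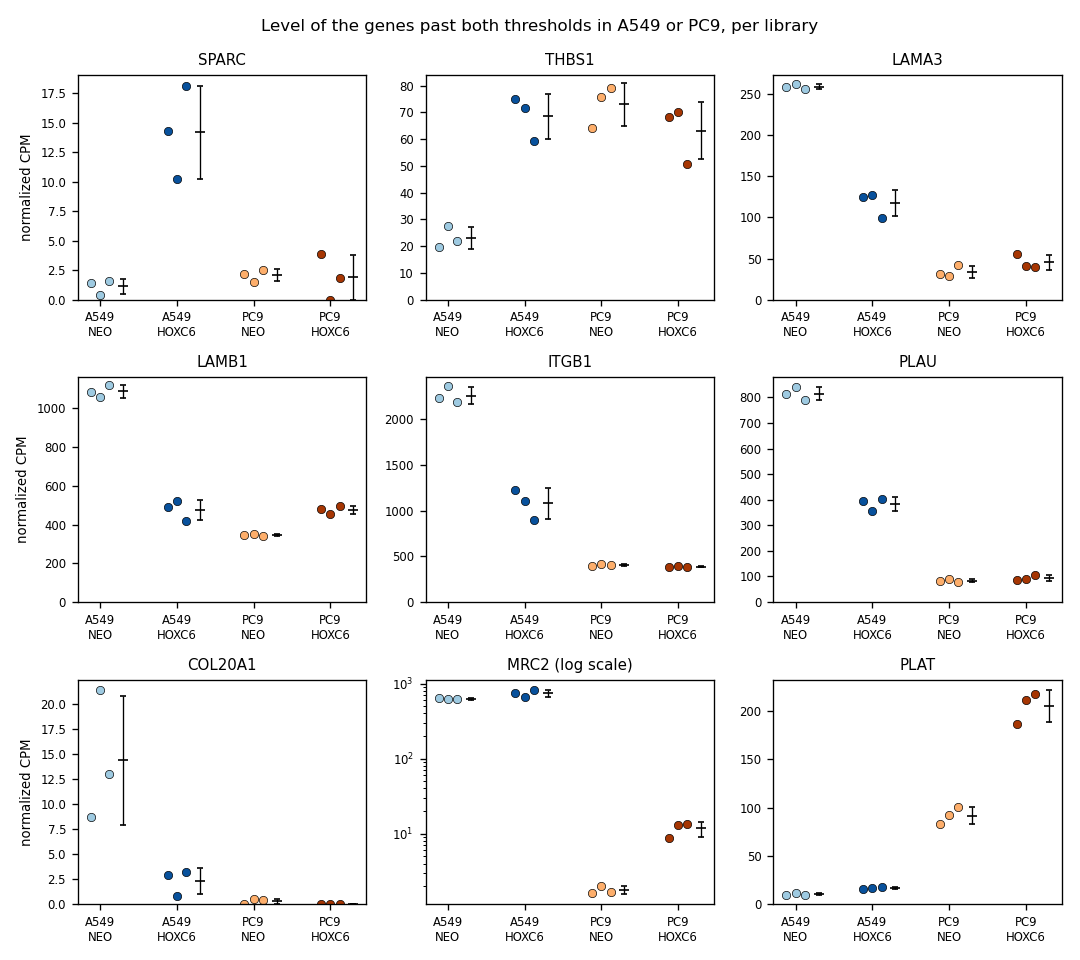
Normalized CPM of 9 members in each library (points, 3 for each of the 4 groups), with the mean and SD beside them, on a log scale for MRC2 and from 0 for the others. SPARC and THBS1 are higher in every A549-HOXC6 library than in any A549-NEO library, LAMA3, LAMB1, ITGB1, PLAU and COL20A1 are lower, and MRC2 and PLAT are higher in every PC9-HOXC6 library than in any PC9-NEO library.

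Of the fibrillar collagen genes, COL5A1 rose in both lines, by 0.80 in A549 (adjusted p = 1.24e-08) and 0.66 in PC9 (adjusted p = 9.98e-06), and COL1A1 passed in neither. Type V collagen is known to control the diameter of collagen fibrils. Among the other collagens, COL20A1 (ENSG00000101203, chr20:61924538-61966203) fell in A549, with 25, 53 and 33 counts in A549-NEO against 8, 1 and 6 in A549-HOXC6. The libraries did not overlap in normalized CPM, and the log2FC was -2.48 ± 0.437 (SE, adjusted p = 5.56e-05) at levels close to the floor (95% interval -3.34 to -1.63). COL20A1 entered the A549 test only through the A549-NEO libraries, where it was high. COL12A1 fell by 0.80 (adjusted p = 0.0294) in A549, a change lost with 7 of the 16 alternatives. COL7A1, the anchoring fibril collagen, fell by 0.22 in A549 (adjusted p = 0.0226), lost in 6 of 16 alternatives. COL6A2 rose by 0.25 in A549, lost in 10 of 16 alternatives, and COL6A1 by 0.48 in PC9, lost with the GC and length correction. COL16A1 passed in neither line.

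Of the 7 basement membrane genes, 3 fell in A549 (LAMA3, LAMB1 and LAMA5) and none rose, whereas of the 6 tested in PC9, 2 rose (LAMB1 and HSPG2) and none fell. LAMA3 (ENSG00000053747, chr18:21269417-21536186), the alpha chain of laminin-332, showed 259, 262 and 256 normalized CPM in A549-NEO, against 125, 128 and 99.6 in A549-HOXC6. The log2FC was -1.18 ± 0.105 (SE, adjusted p = 1.06e-09). In PC9 the values were 31.2, 28.1 and 42.3 against 55.7, 41.0 and 39.3, which overlapped, and the effect in A549 was lower by 1.53 (adjusted p = 1.74e-07).

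LAMB1 (ENSG00000091136, chr7:107564244-107643658), a beta chain found in several laminins, moved oppositely in the lines. It went from 1085, 1057 and 1122 normalized CPM in A549-NEO to 492, 519 and 418 in A549-HOXC6, giving a log2FC of -1.23 ± 0.0834 (SE, adjusted p = 6e-12). In PC9 it went from 346, 351 and 341 to 478, 454 and 496, giving a log2FC of 0.47 ± 0.0663 (SE, adjusted p = 2.97e-06). The groups did not overlap in either line, and both lines with HOXC6 ended near the same level, with means of 477 and 476 normalized CPM. The difference of -1.66 (adjusted p = 2.35e-14) had the smallest adjusted p of any member in that test. The exons of LAMB1 share 484 bases with antisense genes.

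LAMC1, the gamma chain that joins LAMB1 in the trimer, did not pass in either line (log2 fold changes of -0.01 and 0.04). Per kilobase, LAMB1 stood at 2.74 ± 0.0917 times LAMC1 in A549-NEO and 1.18 ± 0.0699 times in A549-HOXC6, and at 1.51 ± 0.182 and 2.02 ± 0.125 times in the PC9 groups (SD, n = 3). With 3 libraries a group, an exact two-sided permutation test of a ratio cannot go below 0.1, and p = 0.1 was reached in both lines. LAMA5 fell by 0.20 in A549 (adjusted p = 0.0123), lost in 4 of 16 alternatives, and HSPG2 rose by 0.50 in PC9 (adjusted p = 1.82e-06). The exons of HSPG2 share 2122 bases with an antisense gene. NID1 did not pass in A549, nor NID2 in either line.

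Of the microfibril and latent TGF-beta binding genes, 4 of 5 rose in A549. FBN2 rose by 0.88 (adjusted p = 1.3e-05), LTBP1 by 0.54 (adjusted p = 2.59e-04) and LTBP2 by 0.41 (adjusted p = 0.00616). FBN1 (ENSG00000166147, chr15:48700510-48937918), the fibrillin-1 gene, had 36.3, 39.1 and 31.1 normalized CPM in A549-NEO, against 75.6, 45.1 and 48.0 in A549-HOXC6. Its log2 fold change of 0.68 fell to 0.36 (adjusted p = 0.134) without A549-HOXC6 replicate 1, the highest library. In PC9, FBN1 was close to the floor at 3.23, 3.52 and 4.66 in PC9-NEO, against 1.92, 1.46 and 1.22 in PC9-HOXC6, and the effect was higher in A549 by 2.06 (standard error 0.568, adjusted p = 0.00781). LTBP3 rose by 0.25 in PC9, a change lost with the GC and length correction (0.02).

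Integrin subunits work as pairs. ITGB1 is known to join each of the 5 alpha subunits of the list, ITGB4 joins ITGA6, and ITGB5, ITGB6 and ITGB8 join ITGAV. In PC9, 5 of the 10 rose (ITGA3, ITGA5, ITGA6, ITGB4 and ITGB5) and 2 fell (ITGA2 and ITGAV). In A549, 1 of the 9 tested rose (ITGB5) and 3 fell (ITGA2, ITGAV and ITGB1).

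ITGB1 (ENSG00000150093, chr10:33176201-33294720), the common beta subunit, fell in A549 from 2229, 2362 and 2187 normalized CPM to 1230, 1110 and 900, giving a log2FC of -1.10 ± 0.0851 (SE, adjusted p = 7.57e-11), and the 3 libraries of each group were separate. In PC9 it had 393, 413 and 404 in PC9-NEO, against 386, 392 and 382 in PC9-HOXC6, where the log2FC was -0.06. The effect was lower in A549 (log2 difference -0.998, adjusted p = 1.46e-08). With the GC and length correction the A549 value was -0.72, and without A549-HOXC6 replicate 3 it was -0.97, both short of the fold change criterion but with a small adjusted p. In PC9 the correction turned the value to 0.23, which passed (adjusted p = 0.00803). ITGB1 has a transcript GC content of 39.5%, against a median of 48.7% over the genes tested, and its exons share 401 bases with an antisense gene.

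ITGB5, which pairs with ITGAV, rose in both lines, by 0.89 in A549 (adjusted p = 4.65e-11) and 0.47 in PC9 (adjusted p = 2.05e-06), and the difference of 0.47 passed (adjusted p = 4.91e-04). Per kilobase, the ratio of ITGB5 to ITGB1 was 0.364 ± 0.0247 in A549-NEO and 1.48 ± 0.290 in A549-HOXC6, against 0.829 ± 0.0316 and 1.19 ± 0.0789 in the PC9 groups (SD, n = 3, exact permutation p = 0.1 in both lines, the smallest possible). The summed level of the 5 alpha subunits stood at 0.905 of ITGB1 in A549-NEO and 1.83 in A549-HOXC6, and at 2.78 and 3.84 in PC9. These ratios were not corrected for GC content and length. With the correction, the PC9 log2 fold changes of ITGB5, ITGB1 and ITGA3 were close together, at 0.29, 0.23 and 0.19. In A549 they were 0.66, -0.72 and -0.28. ITGA5, the fibronectin receptor alpha chain, rose in PC9 by 0.70 (adjusted p = 1.13e-07) and ITGB4, which with ITGA6 binds laminin in hemidesmosomes, by 0.72 (adjusted p = 6.13e-10). In A549 neither passed (0.05 and 0.14), and the differences of -0.61 and -0.53 did. ITGA3 and ITGA6, laminin-binding alpha chains, rose by 0.42 and 0.40 in PC9, and their differences between the lines (-0.45 and -0.60) passed. ITGB6 and ITGB8 did not pass where tested, and with the GC and length correction ITGB6 passed in PC9 at 0.62 (adjusted p = 0.0125). ITGA2, a collagen-binding alpha chain, fell by 0.68 in A549 and 0.58 in PC9, and ITGAV by 0.69 and 0.41. With the GC and length correction ITGA2 gave -0.22 in A549 and -0.24 in PC9 and ITGAV gave -0.14 in A549 and 0.01 in PC9, and none passed.

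**Figure D4:**
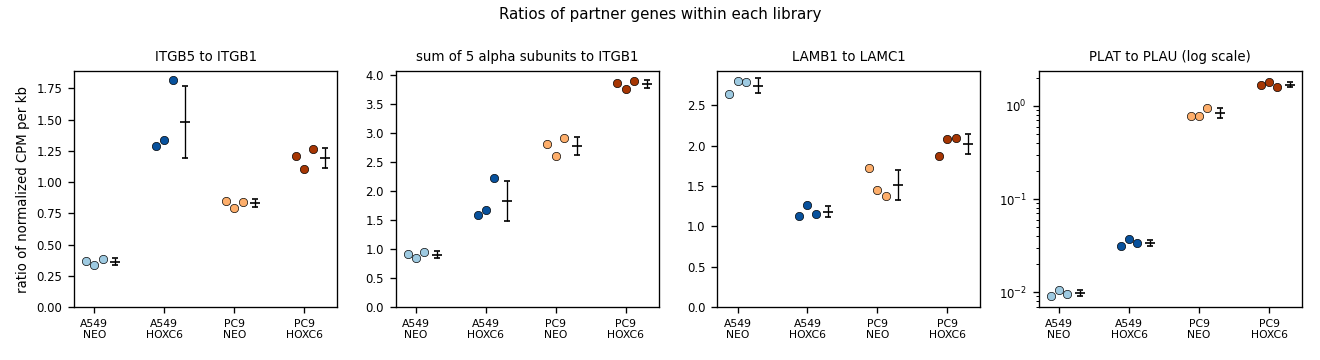
Ratio of partner genes per kilobase in each library (points) with mean and SD, for 4 gene pairs and the 4 groups, with a log scale for PLAT to PLAU. The LAMB1 to LAMC1 ratio is lower in every A549-HOXC6 library and higher in every PC9-HOXC6 library than in the NEO libraries, and the ITGB5 to ITGB1 ratio is higher with HOXC6 in both lines. The ratios are not corrected for GC content and length.

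Of the genes for collagen modification and folding, LOXL2, a cross-linking oxidase gene, rose in both lines, by 0.54 in A549 (adjusted p = 2.96e-06) and by 0.57 in PC9 (adjusted p = 4.3e-06). SERPINH1, the collagen chaperone HSP47, rose in A549 by 0.47 (adjusted p = 4.42e-04) and had -0.16 in PC9, with a difference of 0.68 (adjusted p = 1.31e-04). The lysyl hydroxylase gene PLOD1 rose by 0.42 in PC9, and PLOD2 fell by 0.49 there. Neither of the PLOD changes held with the GC and length correction (0.18 and -0.10), nor did that of SERPINH1 in A549 (0.15), whereas SERPINH1 in PC9 then passed at -0.39 (adjusted p = 4.01e-04), and its difference was 0.59. LOX and P4HA2 passed in neither line.

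MRC2 (ENSG00000011028, chr17:60705031-60770958), an endocytic receptor for collagen, was the member with the largest rise in PC9. Its counts were 3, 4 and 4 with NEO and 18, 18 and 44 with HOXC6 in that line, or 1.61, 2.01 and 1.69 against 8.64, 13.2 and 13.4 normalized CPM, giving a log2FC of 2.70 ± 0.431 (SE, adjusted p = 1.84e-05). The PC9-NEO counts lay at or next to the floor of 3, which left the size imprecise. MRC2 entered the PC9 test only through the PC9-HOXC6 libraries, where it was high. The PC9-HOXC6 level of 11.7 ± 2.68 remained far under the 744 ± 78.7 of A549-HOXC6 (SD, n = 3). In A549 the change was 0.21 (adjusted p = 0.0314), lost in 9 of 16 alternatives, and the effect was lower in A549 by 2.45 (adjusted p = 3.81e-06). The exons of MRC2 share 676 bases with an antisense gene.

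In the plasminogen system, PLAU fell in A549 and PLAT rose in PC9. PLAU (ENSG00000122861, chr10:75668935-75677254) had 813, 841 and 790 normalized CPM in A549-NEO, against 394, 354 and 402 in A549-HOXC6, giving a log2FC of -1.12 ± 0.0782 (SE, adjusted p = 1.03e-11). In PC9 the values of 81.8, 89.9 and 80.0 against 84.9, 89.3 and 105 overlapped, and the effect was lower in A549 by 1.25 (adjusted p = 4.03e-09). Its exons share 915 bases with an antisense gene.

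PLAT rose in PC9 from 82.8, 91.9 and 100 normalized CPM to 186, 211 and 218, giving a log2FC of 1.16 ± 0.0964 (SE, adjusted p = 2.43e-10), without overlap. It was 0.97 after the GC and length correction, short of the fold change criterion. In A549, PLAT rose from 9.76, 11.7 and 9.83 to 16.1, 17 and 17.6 (log2 fold change 0.65, adjusted p = 0.0479), which 13 of 16 alternatives did not keep, and the difference between the lines was not past the threshold (-0.46, 95% interval -0.95 to 0.02). PLAUR, the urokinase receptor gene, rose by 0.57 in PC9 (adjusted p = 4.89e-04) and had -0.11 in A549, with a difference of -0.63 (adjusted p = 0.00505). With the GC and length correction PLAUR in A549 was -0.45 and passed (adjusted p = 2.87e-04). Per kilobase, the PLAT to PLAU ratio was 0.00978 ± 0.000751 in A549-NEO and 0.0338 ± 0.00280 in A549-HOXC6, and 0.839 ± 0.104 and 1.69 ± 0.113 in the PC9 groups (SD, n = 3, exact permutation p = 0.1 in both lines).

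**Figure D5:**
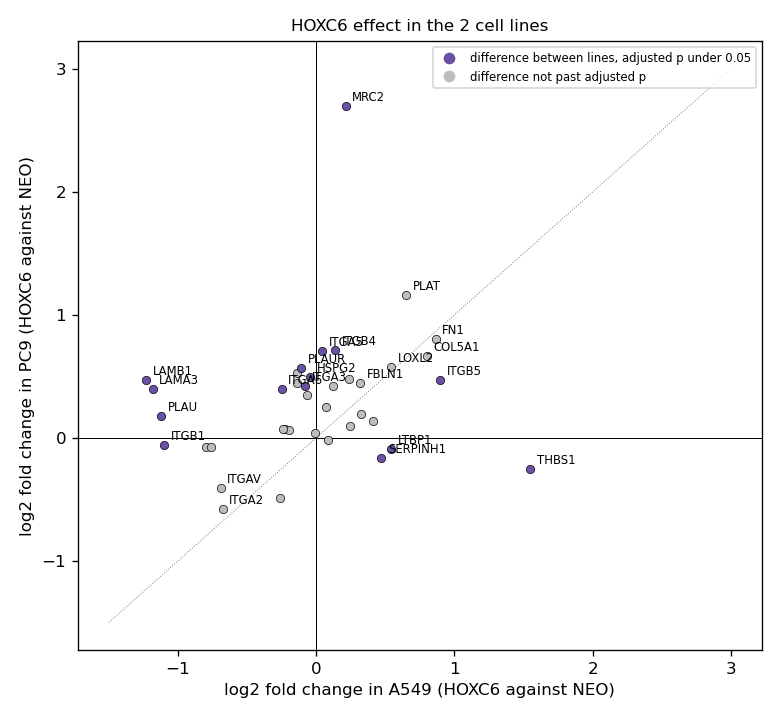
Log2 fold change of each member tested in both lines, in A549 (horizontal) and PC9 (vertical), with the dotted line at equal change and purple points where the difference passed an adjusted p of 0.05. LAMB1, LAMA3, PLAU and ITGB1 lie to the left, THBS1 to the right and MRC2 at the top, and FN1 and COL5A1 lie near the line of equal change.

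Across genes, log2 fold changes rose with the GC content of the transcripts. Spearman's correlation across genes, which are not independent replicates, was 0.53 in A549 and 0.527 in PC9 over all genes, and 0.158 and 0.493 over the members tested. In PC9 the members that rose had a median GC content of 57.8% and those that fell 38.3%. With each library corrected for GC content and length, 8 of the 25 members that had passed in A549 no longer did (MRC2, COL6A2, COL12A1, FBLN1, ITGA2, ITGAV, SERPINH1 and PLAT) and 2 others passed (ITGA3 at -0.28 and PLAUR at -0.45). In PC9, 6 of 21 no longer passed (COL6A1, LTBP3, ITGA2, ITGAV, PLOD1 and PLOD2) and 4 others did (ITGB1, ITGB6, EFEMP1 and SERPINH1). None of the 17 differences between the lines was lost, and that of LTBP2 (0.33) was added. Between the NEO groups none was lost and ITGA2 was added (-0.29). Corrected log2 fold changes in A549 were -1.22 for LAMA3, -1.34 for LAMB1, -1.41 for PLAU, 1.65 for THBS1, 3.51 for SPARC and 0.79 for FN1, and in PC9 they were 2.49 for MRC2 and 0.73 for FN1.

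Of 92 other genes of the same system, 62 were in the table. In A549, 10 of 40 tested rose and 7 fell, against 18.9% and 20.7% of all genes. Past both thresholds were EMILIN1, an elastic fibre glycoprotein gene, with a log2 fold change of 2.44 (3.21 ± 1.36 to 17.9 ± 4.86 normalized CPM, SD, n = 3), VTN, which encodes vitronectin (1.15), and VCAN, which encodes the proteoglycan versican (-1.34, from 415 ± 16.7 to 167 ± 20.9 normalized CPM). EMILIN1 would not have passed the low-count filter on its A549-NEO libraries alone (6, 7 and 12 counts) and entered through A549-HOXC6, where it was high. In PC9, 15 of 36 rose and 3 fell, against 13.3% and 14.2% of all genes. SPOCK1 (1.62), LOXL4 (1.15) and SERPINE2 (1.13), an inhibitor of serine proteases that include urokinase, rose past both thresholds, and SPON2 fell by 1.55. LOXL4 (7, 17 and 18 counts in PC9-NEO) entered the test through PC9-HOXC6, where it was high. SPON2 (6, 4 and 10 counts in PC9-HOXC6) entered only through PC9-NEO, where it was high. The median log2 fold change over the list was 0.15 in A549 and 0.27 in PC9, where the medians of all genes were -0.00047 and -0.0046.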

How the data were processed

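RNA-seq was measured in 12 libraries, 3 in each of the 4 groups, which were taken from the labels. The authors deposited raw counts, whole reads for each gene, made after alignment with HISAT2 2.1.0 to GRCh37.p13 and counting with HTSeq 0.9.1 (versions from the submitters' processing notes), with no normalization or pooling. The paper names a directional RNA library kit, but the annotation release and the strand setting of the counting are not given in the sources used here. The count table used here holds 12584 genes in the order of their identifiers, and 1 incomplete line was left out. Genes whose identifiers come later in that order were not used here.

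After the low-count filter of filterByExpr and TMM scaling, HOXC6 was set against NEO within each line (edgeR 4.0.16 in R 4.3.3, quasi-likelihood test). The difference between the lines and the NEO comparison came from a fit of all 12 libraries. Adjusted p-values (Benjamini-Hochberg) cover all genes tested. Levels are TMM-normalized CPM with 1 scaling over the 12 libraries, and levels per kilobase use the canonical transcript length. The 2 thresholds were 0.05 for the adjusted p and 1 for the size of the log2 fold change (log2FC). Gene positions are from GENCODE on GRCh37. Ratios between members were tested with exact permutation. Alternatives were DESeq2 1.42.0, other scalings and filters, an adjusted p under 0.01, a single model, a replicate block, a GC and length correction (mgcv 1.9.3) and leaving out each library. Deviations from group means were correlated between HOXC6 and NEO libraries of a line. Correlations were -0.0275 to 0.0443 for the same replicate number and -0.0632 to 0.0814 for different numbers. The main fits used no replicate block. The edgeR fits of the 4 comparisons, and the GC and length correction in those with HOXC6, were tested on simulated counts. The members and lists were chosen with earlier results of these data known, and the rule for described genes was that they passed both thresholds in a line or in the difference between the lines, with the others given by role.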

Additional observations from a re-analysis of the deposited data

Results flagged for a closer look

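The HOXC6 effect differed between A549 and PC9 for 17 members, tested as an interaction over the 12 libraries (edgeR, adjusted p under 0.05). The effect was higher in A549 for SPARC (3.63), FBN1 (2.06), THBS1 (1.84), LTBP1 (0.68), SERPINH1 (0.68) and ITGB5 (0.47), as differences of log2 fold changes. It was lower in A549 for MRC2 (-2.45), LAMB1 (-1.66), LAMA3 (-1.53), PLAU (-1.25), ITGB1 (-0.998), PLAUR (-0.63), ITGA5 (-0.61), ITGA6 (-0.60), ITGB4 (-0.53), HSPG2 (-0.50) and ITGA3 (-0.45). LAMB1 passed the test in both lines with opposite signs. SPARC and FBN1 were too low in PC9 to be tested there alone, and their differences rest on low PC9 counts. SPARC entered this test only through A549-HOXC6, where it was high. Growth medium and cell line cannot be told apart in these differences.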

How the results depend on the processing

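Of the members past an adjusted p of 0.05, 12 of 25 in A549, 14 of 21 in PC9, 17 of 17 in the difference between the lines and 37 of 42 between the NEO groups kept their call in every alternative that tested them. For members past both thresholds, keeping the call also meant a log2 fold change still beyond 1. ITGB1 in A549, PLAT in PC9, and ITGA3 and SERPINH1 between the NEO groups were lost on that size alone. SPARC, THBS1, LAMA3, LAMB1, PLAU and COL20A1 in A549 and MRC2 in PC9 were among those kept. With at least 10 counts in every library, the members past both thresholds and higher numbered 1 in A549, 1 in PC9 and 1 in the difference, as low members were no longer tested. With the GC and length correction, 1 member rose past both thresholds in PC9 and 1 fell at an adjusted p under 0.05, with or without a replicate block. ITGAV in PC9 turned from -0.41 to 0.0119 with the correction and to 0.0123 with the correction and the replicate block. Under a replicate block alone, 14 members rose and 10 fell in A549 and 21 rose and 3 fell in PC9, and PLAT in A549 was 0.67 (adjusted p = 0.061). Leaving out 1 library at a time gave 11 to 13 rising and 7 to 11 falling members in A549, and 18 to 19 and 2 to 3 in PC9. FBLN1 in A549 was lost without A549-NEO replicate 1 (0.28) and LTBP2 without A549-NEO replicate 2 (0.28). Over all genes, the correction moved the genes falling past both thresholds from 483 to 224 in A549 and from 300 to 136 in PC9. The minimum of 10 counts moved the genes past both thresholds in PC9 from 81 to 52 and from 300 to 181, the lower difference from 220 to 134 and the NEO counts from 1779 to 931 and from 1612 to 937. An adjusted p under 0.01 left 136 genes with the lower difference, and the correction with the replicate block left 217 falling in A549 and 136 in PC9. Depth limits the size of the changes of SPARC, COL20A1 and FBN1, which had 2 counts or fewer in at least 1 library of a group compared. It also limits that of MRC2 in PC9, which had at most 4 counts in any PC9-NEO library.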

Other observations

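Among the 92 other matrix, integrin and plasminogen system genes, 46 were tested for a difference of the HOXC6 effect between the lines, and the effect was higher in A549 for 3 and lower for 11, against 10.9% and 8.44% of all genes. A pair of them passed in both lines with opposite signs. LTBP4, a latent TGF-beta binding protein gene, fell by 0.49 in A549 (adjusted p = 4.57e-06) and rose by 0.77 in PC9 (adjusted p = 7.31e-09), and P4HA1, a prolyl hydroxylase subunit gene, fell by 0.72 (adjusted p = 0.0031) and rose by 0.86 (adjusted p = 4.54e-07). Their differences, A549 minus PC9, were -1.22 and -1.54.

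SERPINE2 rose in both lines, by 0.70 in A549 (adjusted p = 1.06e-06) and 1.13 in PC9 (adjusted p = 3.24e-13). The genes named here were singled out after their values were seen.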
